A study of Mus musculus with 6 samples.

Results

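The 8 genes described here encode subunits of the sodium and proton pumps of the P-type ATPase family and small FXYD proteins that bind the sodium pump. They are the proton pump genes Atp4a and Atp12a, the sodium pump beta subunit genes Atp1b1, Atp1b2 and Atp1b3, and the FXYD genes Fxyd1, Fxyd2 and Fxyd5. They were taken by symbol from the deposited tables, where each has 1 of the 23282 rows. RNA was measured in whole kidney of C57BL/6 mice (B6, 3 libraries) and of BALB/c mice (BALBc in the labels, 3 libraries), both inbred strains. The labels name no mutation or treatment, and the sources used here do not give sex, age or supplier. A QuantSeq library kit from Lexogen was used; its reads start from the poly(A) tail and cover the 3′ end of a transcript. The libraries held between 8310798 and 10416332 reads. Values are reads per gene on a scale on which every library has about the same sum (CPM), and differences are BALB/c minus B6 on the log2(CPM + 1) scale, with a standard error (SE) from the limma model.

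P-type ATPases are membrane pumps that take up the phosphate of ATP on an aspartate during each transport cycle. The sodium pump is made of a catalytic alpha subunit, a glycosylated beta subunit needed for folding and delivery to the membrane, and often an FXYD protein that tunes its affinity for ions. In the kidney it sits in the basolateral membrane of tubule cells and drives the reabsorption of sodium, and beta 1 is the prevailing beta subunit there. The related proton-potassium pumps secrete acid and take up potassium: the gastric form consists of Atp4a with its own beta subunit Atp4b, and the nongastric form, Atp12a, can assemble with Atp1b1. Both proton pumps are known from intercalated cells of the collecting duct.

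The members were selected on their strain values, that is on the B6 and BALB/c levels in these libraries, so those values are given as a description and no p-value is attached to them. Of the 8 members 7 passed the filter on low values, a log2 value of at least 1 in at least 3 libraries, and Atp12a did not. The limma call, a Benjamini-Hochberg adjusted p under 0.05 over 13317 genes, was met by Atp4a and Atp1b3, that is by 2 of 7 members, both lower in BALB/c. The same call was met by 9.09% of all genes tested, 4.17% being higher and 4.93% lower in BALB/c. In 4 of the 7 no B6 value lay within the BALB/c range or the reverse, against 25.4% of all genes tested, and nothing is read from these counts. The median difference of the 7 was -0.18 on the log2 scale and that of all genes tested 0.0023. Both strains were processed with mm10, which is built on B6, and a loss of BALB/c reads by mismatch to that reference was not tested.

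**Figure D1:**
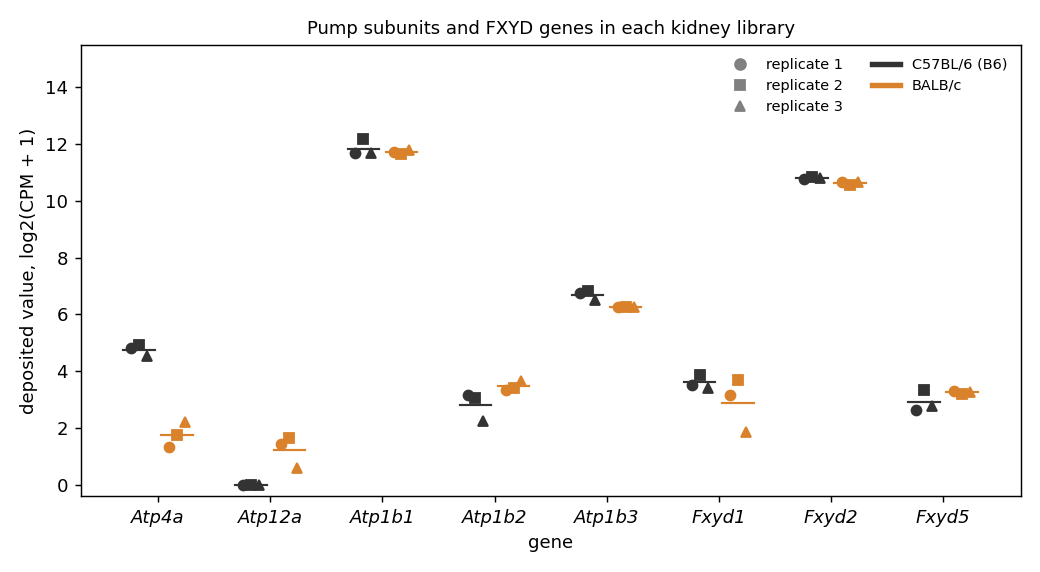
Deposited values on the log2(CPM + 1) scale (vertical axis) of the 8 genes (horizontal axis) in each library; grey-black marks are B6, orange marks are BALB/c, the marker shape gives the replicate and each line is the mean of 3 libraries. Atp4a lies between 4.53 and 4.92 in B6 and between 1.35 and 2.20 in BALB/c, Atp12a is at 0 in the B6 libraries, and the marks of Atp1b1 and Fxyd2 lie above 10.5 in both strains.

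Promoter sequence is shown for Atp4a and Atp1b3, the members that met the call, to let their start regions be compared. RefSeq promoter entries on GRCm38.p6 were found for 5 of the 8 members, and Atp12a, Atp1b2 and Fxyd2 had none. Each line gives the 250 bases before the annotated start, 5′ to 3′ on the strand of the gene. Capitals mark the GC-box core GGGCGG on either strand, which reads CCGCCC on the opposite one. The Atp4a window is chr7:30711959-30712208 on the plus strand and that of Atp1b3 is chr9:96364432-96364681 on the minus strand.
Atp4a: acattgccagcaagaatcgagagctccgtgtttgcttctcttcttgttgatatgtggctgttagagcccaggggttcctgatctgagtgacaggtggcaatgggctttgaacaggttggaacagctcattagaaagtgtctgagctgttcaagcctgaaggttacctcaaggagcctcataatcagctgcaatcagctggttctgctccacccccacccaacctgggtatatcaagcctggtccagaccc
Atp1b3: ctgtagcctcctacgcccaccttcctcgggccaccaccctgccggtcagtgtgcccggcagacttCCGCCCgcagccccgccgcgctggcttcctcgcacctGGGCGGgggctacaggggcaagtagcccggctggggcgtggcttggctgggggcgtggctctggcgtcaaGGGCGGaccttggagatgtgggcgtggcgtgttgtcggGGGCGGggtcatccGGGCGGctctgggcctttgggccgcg
The Atp1b3 window held 5 matches to GGGCGG, at 185, 148, 78, 40 and 26 bases before the start, and 73.6% of its bases were G or C. RefSeq lists another start of Atp1b3, farther into the gene, whose window (chr9:96363716-96363965, minus strand) held no match to GGGCGG and had 76.8% G or C, so the matches belong to the first of its windows alone. The Atp4a window held none and had 51.2% G or C, near the median of 52.4% over all windows. The promoter of Atp1b1 (70.4% G or C) held 2 matches to GGGCGG, and those of Fxyd1 and Fxyd5 held none. GGGCGG was found in 32.7% of all 32851 promoter windows of the same length. CCAAT, found in 33.8% of them, matched once in the Atp1b1 window and in no other member's, and TATAAA, found in 12.4%, matched in no member's. None of these motifs overlap each other in the windows shown. The sequences are those of the B6 reference and the BALB/c sequence was not used here.

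Atp4a, the catalytic subunit of the gastric proton-potassium pump (ENSMUSG00000005553.14, chromosome 7, 30712209 to 30725534, plus strand, GRCm38), had 27.4, 29.2 and 22.1 CPM in B6 replicates 1, 2 and 3, from 249, 290 and 197 reads. In BALB/c replicates 1, 2 and 3 it had 1.55, 2.36 and 3.61 CPM, from 16, 20 and 36 reads. Every B6 library was above every BALB/c library, and the lowest B6 value was several times the highest BALB/c value. The B6 mean was 26.2 ± 3.71 CPM and the BALB/c mean 2.51 ± 1.04 CPM (SD, n = 3), a 10.5-fold ratio. The log2 difference was -2.99 ± 0.28 (SE). No exon of another gene overlaps Atp4a, and none of the 51 words of 50 bases taken from its last 300 bases occurs in another gene's transcripts. The range of the 3 libraries within a strain was 0.39 in B6 and 0.85 in BALB/c on the log2 scale. As Atp4a was selected on these values, they are a description only.

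Atp12a, the catalytic subunit of the nongastric proton pump (ENSMUSG00000022229.3, chromosome 14, 56365068 to 56388550, plus strand), had no read in any B6 library. BALB/c replicates 1, 2 and 3 had 18, 18 and 5 reads, or 1.74, 2.12 and 0.501 CPM. The gene was thus seen in the strain in which Atp4a was low. Within BALB/c, replicate 3 had the fewest Atp12a and the most Atp4a reads. Replicates 1 and 2, equal in Atp12a reads, had 16 and 20 Atp4a reads. A relation between these genes was not tested. Over the 3 libraries of a strain Atp12a had 0 and 41 reads. Set against a floor of 3 reads over the B6 group, which is 0.107 CPM, its pooled level in BALB/c was 13.5-fold higher. The floor allows for counting error in B6 only, and the 41 reads were taken as they stand. This ratio is therefore not a lower limit. At 41 reads the level in BALB/c is itself known only roughly, and BALB/c replicate 3 had 0.501 CPM. Exons of Gm10873 overlap those of Atp12a on the other strand, and whether the counting kept the strands apart is not stated. None of the 3′ end words of Atp12a occurs in Atp4a or in another gene.

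Atp4b, the beta subunit that pairs with Atp4a in the stomach, had no read in any of the 6 libraries, which allows at most 0.0529 CPM over all of them together. Markers of gastric cells were near 0 as well. Of 13 symbols looked up, 12 were found, and 8 of these had no read, Gif and Gast among them. The summed level of the markers lay between 0.202 and 0.785 CPM in the B6 libraries and between 0 and 0.590 CPM in the BALB/c libraries. Markers of intercalated cells were well measured. Their summed level was between 1085 and 1174 CPM in the B6 libraries and between 963 and 1053 CPM in the BALB/c libraries, with no overlap. Of 16 such genes tested, 1 rose and 2 fell in BALB/c, against 4.17% and 4.93% of all genes tested. Of the 16 differences 14 were negative, with a median of -0.27, against 6610 of 13317 over all genes tested. The lean was not particular to this list: 9 of 10 endothelial and 11 of 17 kidney epithelium differences were negative (medians -0.22 and -0.23). Adrenal and nerve lists had positive medians, over 2 and 3 tested genes. The ammonia transporter genes Rhcg and Rhbg fell by 0.74 ± 0.14 and 0.56 ± 0.14 on the log2 scale (SE, limma adjusted p = 8.83e-04 and 0.0137), and exons of Rhbg overlap those of Gm38392. The intercalated cell aquaporin gene Aqp6 rose by 0.54 ± 0.14 (limma adjusted p = 0.0130). Rhbg lost its call when B6 replicate 1, B6 replicate 2 or BALB/c replicate 1 was dropped (limma adjusted p up to 0.0843), and Aqp6 lost it when B6 replicate 1, B6 replicate 3, BALB/c replicate 2 or BALB/c replicate 3 was dropped (up to 0.0758). The part of these cells in the Atp4a and Atp12a values was not tested. In whole tissue fewer cells of a type and less RNA per cell cannot be told apart.

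Among the beta subunits, Atp1b3, the beta 3 form (ENSMUSG00000032412.8, chromosome 9, 96332655 to 96364442, minus strand), was the member with the most even values in BALB/c. It had 108.2, 112.3 and 89.6 CPM in B6 replicates 1, 2 and 3 and 75.96, 76.3 and 76.3 CPM in BALB/c replicates 1, 2 and 3. The strains did not overlap, and B6 replicate 3 was the B6 library nearest to BALB/c. The means were 103.4 ± 12.1 and 76.2 ± 0.202 CPM (SD, n = 3), and the log2 difference was -0.43 ± 0.12 (SE). The limma call of Atp1b3 ended when B6 replicate 1, B6 replicate 2, BALB/c replicate 1 or BALB/c replicate 2 was dropped, and with a variance prior that does not follow the expression level. Its difference stayed between -0.53 and -0.37 in all 17 alternative settings.

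Atp1b1, the beta subunit of the main renal sodium pump (ENSMUSG00000026576.12, chromosome 1, 164437109 to 164458355, minus strand), had 3280.2, 4582 and 3267 CPM in B6 replicates 1, 2 and 3. BALB/c replicates 1, 2 and 3 had 3394, 3244 and 3533 CPM, so the strains overlapped and B6 replicate 2 stood above the other 5 libraries. The means were 3709.5 ± 755.4 and 3390.1 ± 144.4 CPM (SD, n = 3), with a log2 difference of -0.11 ± 0.11 (SE). Without B6 replicate 2 the difference was 0.050, on the other side of 0. Exons of Atp1b1 overlap those of Nme7 on the other strand, and 64.7% of its 3′ end words occur in Nme7 transcripts. Nme7 had means of 1726 ± 347.3 and 1655 ± 47.6 CPM in these strains (SD, n = 3) and was likewise highest in B6 replicate 2, with 2127 CPM. Whether the counting kept reads of these genes apart is not stated. For Fxyd3 and Lgi4, which also overlap on opposite strands, the B6 mean and SD were the same. The shared peak of Atp1b1 and Nme7 in B6 replicate 2 therefore cannot be taken as separate observations.

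Atp1b2, the beta 2 form, known best from glia (chromosome 11, 69599736 to 69605942, minus strand), had 7.93, 7.36 and 3.70 CPM in B6 replicates 1, 2 and 3 and 9.20, 9.56 and 11.7 CPM in BALB/c replicates 1, 2 and 3. All BALB/c libraries were above all B6 libraries, with B6 replicate 3 lowest at 33 reads. The means were 6.33 ± 2.29 and 10.2 ± 1.36 CPM (SD, n = 3), and the log2 difference of 0.66 ± 0.29 (SE) did not meet the limma call. Without B6 replicate 3 the difference was 0.36. Markers of nerve and glia, summed over 8 genes, lay between 33.6 and 56.7 CPM in the B6 libraries and between 55.1 and 70.3 CPM in the BALB/c libraries, and Tubb3 had no read. Of their 3 tested members 0 were called by limma and 1 had an unadjusted p under 0.05. Their part in the Atp1b2 values was not tested.

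Among the FXYD genes, Fxyd2, the gamma subunit of the renal sodium pump, which lowers its affinity for sodium (ENSMUSG00000059412.7, chromosome 9, 45399669 to 45410278, plus strand), had 1734, 1841 and 1774 CPM in B6 replicates 1, 2 and 3. BALB/c replicates 1, 2 and 3 had 1638, 1496 and 1606 CPM. The ranges did not overlap, and they were narrow, 0.086 within B6 and 0.13 within BALB/c on the log2 scale. The means were 1783 ± 53.8 and 1580.1 ± 74.5 CPM (SD, n = 3), a log2 difference of -0.18 ± 0.09 (SE) that did not meet the limma call. Across the 17 alternative settings the difference lay between -0.20 and -0.14.

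Fxyd1, or phospholemman, a phosphorylated regulator of the pump best known from heart and muscle (chromosome 7, 31051678 to 31057199, minus strand), had 10.6, 13.5 and 9.76 CPM in B6 replicates 1, 2 and 3 and 7.94, 11.8 and 2.61 CPM in BALB/c replicates 1, 2 and 3. The strains overlapped, and BALB/c replicate 3 stood apart with 26 reads, against 82 and 100 in the others of its strain. The means were 11.3 ± 1.98 and 7.44 ± 4.61 CPM (SD, n = 3), with a log2 difference of -0.71 ± 0.35 (SE). Without BALB/c replicate 3 it was -0.19, and without BALB/c replicate 2 it was -1.10. Smooth muscle markers, summed over 10 genes, lay between 512.8 and 615.3 CPM in the B6 libraries and between 450.0 and 497.6 CPM in the BALB/c libraries. Within BALB/c the markers were lowest in replicate 3, as was Fxyd1, but highest in replicate 1, where Fxyd1 was below replicate 2. Within B6 the markers were lowest in replicate 2, where Fxyd1 was highest. Of their 9 tested members 1 fell, the actin gene Acta2 (-0.82 ± 0.13, limma adjusted p = 1.66e-04). Against 6610 of 13317 over all genes tested, all 9 differences of these markers were negative. Their part in the Fxyd1 values was not tested.

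Fxyd5, or dysadherin, which also affects cell adhesion (chromosome 7, 31032722 to 31042481, minus strand), had 5.29, 9.18 and 5.83 CPM in B6 replicates 1, 2 and 3 and 8.90, 8.25 and 8.62 CPM in BALB/c replicates 1, 2 and 3. B6 replicate 2 was above all BALB/c libraries and the other B6 libraries were below them. The means were 6.76 ± 2.11 and 8.59 ± 0.326 CPM (SD, n = 3), a log2 difference of 0.34 ± 0.28 (SE), which was 0.55 without B6 replicate 2 and 0.20 without B6 replicate 1. An exon of Mir7050 lies within those of Fxyd5. Leukocyte markers, summed over 10 genes, had 91.3 to 102.8 CPM in the B6 libraries and 78.2 to 85.8 CPM in the BALB/c libraries. Endothelial markers had 500.1 to 548.4 CPM in the B6 libraries and 454.7 to 455.4 CPM in the BALB/c libraries. Limma called 0 of 10 genes of either list, with 3 leukocyte and 4 endothelial genes at an unadjusted p under 0.05. The part of either list in the Fxyd5 values was not tested.

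**Figure D2:**
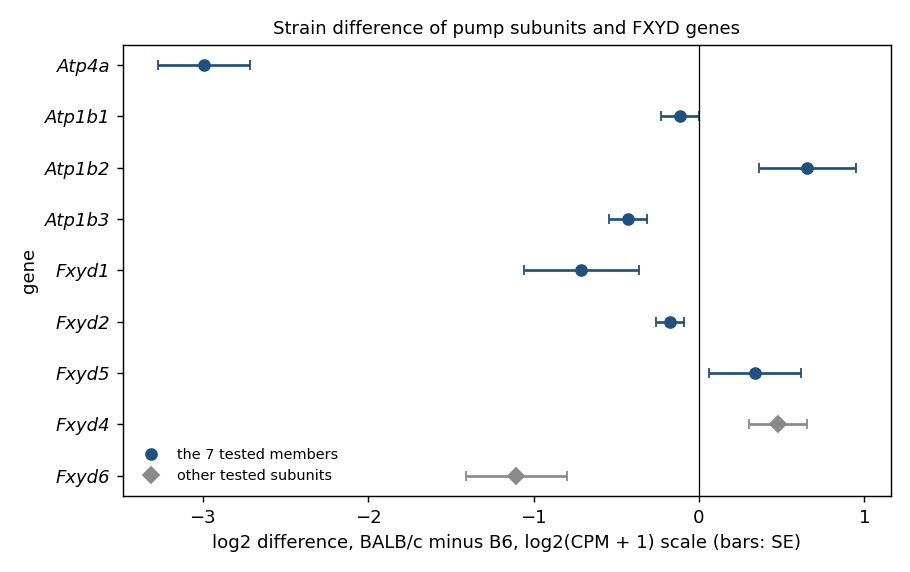
Log2 difference, BALB/c minus B6, on the log2(CPM + 1) scale (horizontal axis) with its SE for each tested gene (vertical axis); circles are the 7 tested members and diamonds the 2 tested genes among the other pump subunits and FXYD genes. Atp4a at -2.99 lies apart from the rest, which range from -1.10 (Fxyd6) to 0.66 (Atp1b2).

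Of the other subunits of these pumps and the other FXYD genes 7 are reported, of which 2 passed the filter, 1 fell in BALB/c and 0 rose (limma). Fxyd6, which lies 3.51 kb before Fxyd2 on the same strand of chromosome 9, fell from 10.3 ± 1.79 to 4.45 ± 2.06 CPM (SD, n = 3). Its log2 difference was -1.10 ± 0.31 (SE, limma adjusted p = 0.0236), and when B6 replicate 2, B6 replicate 3, BALB/c replicate 1 or BALB/c replicate 2 was dropped it was no longer called (limma adjusted p up to 0.112). Fxyd4, the FXYD protein of principal cells that raises the sodium affinity of the pump, had 38.5 ± 10.8 and 52.8 ± 7.49 CPM, with no overlap, a log2 difference of 0.48 ± 0.18 (limma adjusted p = 0.0997).

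Fxyd3 was below the filter, with 7, 5 and 5 reads in B6 replicates 1, 2 and 3 and 32, 43 and 5 reads in BALB/c replicates 1, 2 and 3, and its exons overlap those of Lgi4 on the other strand. As with Fxyd1 and Atp12a, BALB/c replicate 3 was the lowest library of its strain. Lgi4 had the same B6 mean and SD as Fxyd3, 0.612 ± 0.140 CPM (SD, n = 3). In BALB/c it had 2.81 ± 2.18 CPM, against 2.89 ± 2.29 CPM for Fxyd3. The values of Fxyd3 and Lgi4 cannot be taken as separate measures. Atp1a4 and Atp1b4 had 5 reads each in BALB/c, and Fxyd7 had none in any library.

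Genes whose 6 log2 values, centred on their own mean, were nearest to those of a member were found by the root mean square difference over the 6 libraries. For Atp4a they were Pttg1, the securin gene (0.26), Cyp2c44, a cytochrome P450 gene (0.32), and Trim12a (0.35), with log2 strain differences of -3.05, -2.74 and -2.89. For Atp1b1 they were Ehd4 (0.0082), Pkm, a pyruvate kinase gene (0.028), and Cyp27a1 (0.032). For Fxyd2 they were Egln1, an oxygen-sensing hydroxylase gene (0.016), the cofilin gene Cfl1 (0.021) and Wac (0.028). Such nearness is a description over 6 libraries of 2 strains. Genes with small strain differences lie near many others.

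Members of different families share a stretch of chromosome 7. Fxyd5, Fxyd7, Fxyd1 and Fxyd3 lie side by side on the minus strand, with gaps of 31 and 210 bases and 10.97 kb. The nearer end of Fxyd5 lies 307.2 kb beyond the end of Atp4a. Within 500 kb of Atp4a, and leaving out the members Fxyd1 and Fxyd5, which lie there and were tested and not called, the files held 57 other genes, of which 31 were tested and 5 fell in BALB/c (16.1%, against 9.09% of all genes tested), while 0 rose. The median difference of the 31 was -0.11. Nphs1, which encodes nephrin of the podocyte slit diaphragm, had a log2 difference of -2.98 ± 0.33 (SE, limma adjusted p = 1.11e-06), close to that of Atp4a, but other genes hold 21.6% of its 3′ end words and its exons overlap those of Nphs1os and Rps12-ps4 on the other strand. The tubulin cofactor gene Tbcb had -0.97 ± 0.13 (limma adjusted p = 2.32e-05) and overlaps Polr2i on the other strand. Syne4 had -0.98 ± 0.23 (0.00716). Tmem147, which lies 2.17 kb beyond the end of Atp4a on the other strand, had -0.46 ± 0.11 (0.00710) and lost its call without BALB/c replicate 2 (0.0607). The fifth, the hydroxyproline dehydrogenase gene Prodh2 (-0.56 ± 0.16, 0.0229), was named after its value was seen and lost its call when B6 replicate 1, B6 replicate 3, BALB/c replicate 2 or BALB/c replicate 3 was dropped (up to 0.148).

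**Figure D3:**
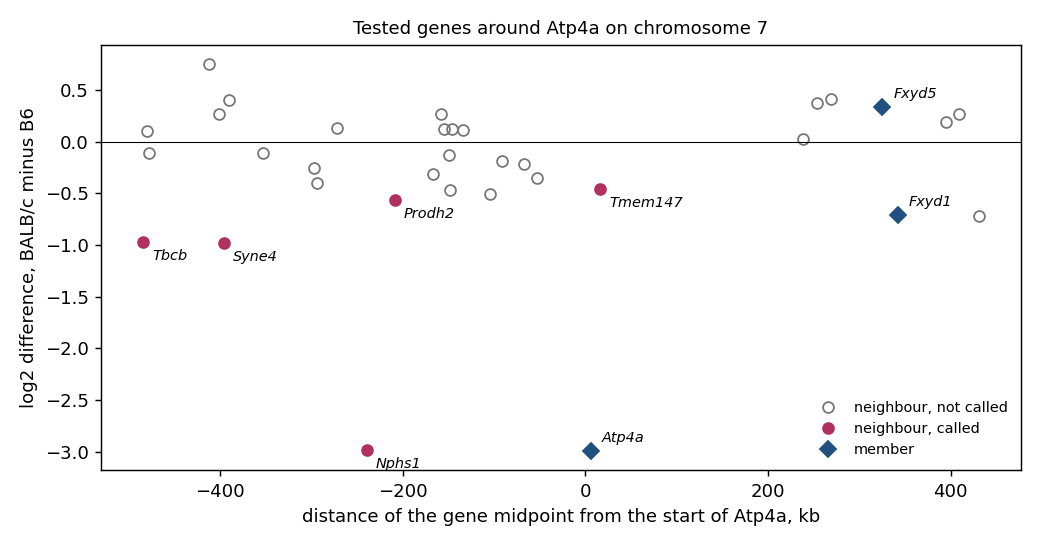
Log2 difference, BALB/c minus B6 (vertical axis), of the tested genes within 500 kb of Atp4a against the distance of each gene's midpoint from the start of Atp4a in kb (horizontal axis); diamonds are members, filled circles are the 5 neighbours called by limma and open circles those not called. The called neighbours lie below 0, and Nphs1 at -2.98 is level with Atp4a at -2.99.

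Of the other P-type ATPases, 23 of 31 were tested, and their median difference was -0.039. Of the 23, 4 rose and 2 fell in BALB/c, against 4.17% and 4.93% of all genes tested. The lipid flippase genes Atp9a, Atp8b5 and Atp10d rose by 0.95, 2.68 and 1.76 (limma adjusted p = 1.21e-06, 5.60e-05 and 6.91e-04), and the calcium pump gene Atp2a3 rose by 0.93 (0.00370). Atp8b5 had 0, 0 and 12 reads in B6 replicates 1, 2 and 3, so the size of its rise depends on the pseudocount. It was 1.21 at a pseudocount of 5 CPM and 5.62 with limma-voom. The gene annotation used here, on the GRCm38 assembly, types Atp10d as a polymorphic pseudogene. The copper pump gene Atp7a (-0.54, limma adjusted p = 0.00769) and the calcium pump gene Atp2b4 (-0.56, 0.0119), whose exons overlap Mir6903, were the ones that fell and were named after their values were seen. Atp7a lost its call without B6 replicate 1 (0.0510) and Atp2b4 without B6 replicate 2 (0.0643). Of 19 tested regulators and anchors of the sodium pump, 1 rose and 0 fell. The riser was the kinase gene Oxsr1, a partner of the WNK kinases (0.94 ± 0.21, limma adjusted p = 0.00481). Of the 19 differences 16 were negative, against 6610 of 13317 over all genes tested.

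Of 15 sodium entry routes and potassium channels that work with the pump, 1 rose and 3 fell, with a median of -0.24. Over all genes tested 4.17% were called higher and 4.93% lower in BALB/c. Kcnj16, a potassium channel subunit of the basolateral membrane, rose by 0.56 (limma adjusted p = 7.80e-05), whereas its partner Kcnj10 fell by 0.57 (0.0375), as did the thiazide-sensitive cotransporter gene Slc12a3 by 0.53 (8.47e-04). Kcnj10 lost its call when any library but BALB/c replicate 3 was left out (up to 0.217). The chloride channel subunit gene Bsnd fell by 0.57 (limma adjusted p = 0.0390). It lost its call when any library but B6 replicate 3 was left out (up to 0.149) and with the replicate block (0.0632).

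All 17 defining markers of kidney epithelium reported here were detected and tested, and their summed level lay between 8668 and 10133 CPM in the B6 libraries and between 8296 and 8622 CPM in the BALB/c libraries. Of these 1 rose, Pvalb (1.27), and 2 fell, Slc12a3 (-0.53) and Calb1 (-0.48), against 4.17% and 4.93% of all genes tested. Erythroid markers had 4553 to 5575 CPM in the B6 libraries and 2888 to 5280.2 CPM in the BALB/c libraries, and 1 of 5 fell, Hbb-bs (-0.65), which shares 37.3% of its 3′ end words with Hbb-bt and lost its call without B6 replicate 1 (limma adjusted p = 0.0513). Adrenal markers had 8.97 to 9.91 CPM in the B6 libraries and 10.6 to 17.9 CPM in the BALB/c libraries, with Cyp11b1, Cyp11b2 and Cyp21a1 at 0 reads, and limma called 0 of the 2 tested, with 0 at an unadjusted p under 0.05.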

How the data were processed

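Whole kidney RNA of 3 B6 and 3 BALB/c mice was sequenced, 1 library per sample. Per the submitters' processing notes, the authors used Bowtie2, bedtools and mm10; tool versions, gene models, strand use and the treatment of multiply aligned reads were not given in the sources used here. Each deposited table holds log2 values, 1 per gene symbol. Raised from that scale and lowered by 1, they summed to between 980188 and 1043599 per library. Up to 20 reads, 100% of a library's values were multiples of its smallest step to within 0.1 read, so they are taken as log2(CPM + 1) with a further scaling per library. A read was worth 0.0968 to 0.118 CPM.

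Genes with a log2 value of at least 1 in at least 3 libraries (13317) were fitted with limma 3.58.1 in R 4.3.3, with strain as the sole term and a variance prior that follows the expression level (18.4 prior against 4 residual degrees of freedom). Two-sided p-values were adjusted by the Benjamini-Hochberg method over these genes. No libraries of a strain were alike within counting error (chi-square of their reads 7.93 to 17.1 per degree of freedom). Nothing in the labels says that they came from separate mice beyond the series' count of 3 per strain, so p-values measure the spread between these libraries.

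The members and the gene lists were chosen with earlier results of these data known. Some genes of these lists are not reported here and were left out of the lists' counts, medians and sums. Named were all members and the other subunits kept, up to 4 genes of each list and of the Atp4a neighbourhood with the smallest p, and the 3 genes nearest in pattern to Atp4a, Atp1b1 and Fxyd2. For kidney, erythroid and coupled transport lists only called genes, and for other lists at times fewer than 4, are given. Coordinates, exon overlaps and 3′ end words (50 bases, every 5, from the last 300 of the longest coding transcript) were taken from GENCODE M21, whose GRCm38 assembly is mm10. Filters, pseudocounts, scaling, variance priors, limma-voom, a replicate block and left-out libraries were tried as alternatives.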

Additional observations from a re-analysis of the deposited data

How the results depend on the processing

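Across all genes 1211 were called. The count was 493 with an untrended variance prior, lay between 797 (without BALB/c replicate 1) and 1138 when 1 library was left out, and between 855 and 1242 in the other settings. Of the other pump subunits 1 was called, Fxyd6, and 0 with an untrended prior, with no filter beyond 1 read, and in 4 of the 6 settings that leave out a library, where the count lay between 0 and 1. Fxyd6 had an adjusted p of up to 0.112 there. The difference of Atp4a lay between -3.43 (limma-voom) and -2.06 (pseudocount of 5 CPM) across the 17 alternatives. As Atp4a was selected on these values, this range is a description only. Atp1b3 kept its sign in all 17. The untrended prior ended calls: 14 of the 24 called genes named beside the members lost theirs, namely Fxyd6, Atp2b4, Atp7a, Slc12a3, Kcnj10, Kcnj16, Bsnd, Aqp6, Rhbg, Acta2, Hbb-bs, Calb1, Tmem147 and Prodh2. With no filter beyond 1 read the calls of Fxyd6, Kcnj10, Bsnd, Hbb-bs and Prodh2 ended. Scaling to total reads and limma-voom each ended those of Kcnj10 and Bsnd, and robust variances that of Hbb-bs. The causes were not tested. Equal replicate numbers did not pair the libraries (correlations of same-numbered deviations 0.012, -0.057 and -0.084). With the replicate block 977 genes were called, 969 of them among the 1211, and of the named genes Bsnd alone lost its call. When a strain is left with 2 libraries the fit assumes the same spread in both strains. At most 41 reads lie behind Atp12a, and genes at 0 reads cannot be ranked.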
